A study of Mus musculus with 2 samples.

Results

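The genes of oxidative phosphorylation were followed in splenic dendritic cells (DCs), the antigen-presenting cells of the spleen, after culture with IL-27 or with vehicle. Members were all genes whose symbol in the array's annotation begins with Nduf, Uqcr, Cox4 to Cox8, Sdha to Sdhd or Atp5, a rule that uses symbols and no measured value but was set with earlier results of these data known. This gave 93 of 19935 genes, each represented by its brightest probe set. They comprise 73 general subunits (34 of complex I, 4 of complex II, 8 of complex III, 10 of complex IV and 17 of complex V), 9 tissue isoforms and relatives of complex IV subunits, and 11 assembly factors. The DCs of both groups were primary cells sorted by flow cytometry from spleens of C57BL/6 wild type animals aged 8 weeks. One group received vehicle and the other IL-27, a cytokine of the IL-12 family, in culture for a time labelled "ON". Each group was read on 1 array. There was therefore no replicate, no error can be given, and each difference is between 2 arrays. Precision is limited by this number of arrays, and the labels do not tell how many mice the cells came from.

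Oxidative phosphorylation is the process by which mitochondria turn the oxidation of NADH and succinate into ATP. Complex I takes electrons from NADH and complex II from succinate. Both pass them through ubiquinone to complex III, which hands them by cytochrome c to complex IV, where oxygen is reduced. Proton pumping by complexes I, III and IV drives complex V, the ATP synthase. Most subunits are encoded in the nucleus, and a few are encoded by mitochondrial DNA. DCs rely on this pathway at rest and are known to shift toward glycolysis on activation by microbial products.

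The deposited values were intensities on a linear scale, with medians of 92.4 (vehicle) and 98.9 (IL-27). The difference between the arrays (log2, IL-27 minus vehicle) depended on level over all genes. Its running median over 1000 genes was 0.12 at the dimmest level, -0.57 around an intensity of 240.4 and -0.30 over the brightest genes. Each member is therefore also set against its level neighbours, the 1000 genes nearest to it in mean log2 level. The 95th percentile of 1027 olfactory receptor genes (77.3 with vehicle, 129 with IL-27) served as a limit for signal that cannot be told from genes silent in DCs. Of the DC markers, Itgax (3371 and 1829), Flt3 (1796 and 851), Zbtb46 (344 and 340) and the class II chain H2-Aa (7080 and 7697) were present on both arrays. Of 14 macrophage and monocyte markers, 13 reached the level minimum used below and 10 of these were 2-fold lower with IL-27, where 13.2% of all genes were, and the summed intensity was 36051 with vehicle and 14958 with IL-27. Of 13 DC markers, 5 were 2-fold lower, with sums of 42196 and 33335. Without H2-Aa, H2-Ab1 and Cd74, which were nearly level, the sums of the other 10 were 18624 and 8872, or 2.10-fold lower. Sums were 1767 and 1002 for 5 B cell markers, of which 2 were 2-fold lower. They were 460 and 503 for T cell, 298 and 351 for NK cell and 323 and 456 for neutrophil markers, none of which was called. However, only 3 of 5 T cell, 2 of 5 NK cell and 1 of 6 neutrophil markers reached the level minimum. Above the olfactory limit on both arrays were 1, 0 and 1 of them, so these sums hold signal that cannot be told from silent genes. The part of cell composition in the differences below was not tested. In a bulk sample, fewer cells of a type and less RNA per cell cannot be told apart.

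Nuclear-encoded subunits were on the whole modestly lower on the IL-27 array, about as much as other genes of their level. Of the 73 subunits, 71 had a difference below 0, with a median of -0.52, which is 1.43-fold lower. The median over all genes was 0.04 and over the 11140 genes at or above the level minimum (at least 96.2 on the brighter array, which is the median intensity of the data set) -0.34. The subunits' level neighbours had a median of -0.45. Measured from these neighbours, the subunits' median was -0.10, and 50 of 73 subunits (68.5%) lay below their neighbours.

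Few members passed a 2-fold rule of size. Of the 93 members, 80 reached the level minimum. Of these, 4 (5%) were at least 2-fold lower, and 13.2% of all genes that reached the minimum were. None of the 80 was 2-fold higher, where 1.52% of all genes were. At 1.5-fold, 32 of the 80 (40.0%) were lower, with 33.7% of all genes, and none was higher, with 5.86% of all genes. None of these shares of all genes was matched for level. The 4 genes were the complex I subunits Ndufa9, Ndufb8 and Ndufc2 and the complex II assembly factor Sdhaf1. With the arrays quantile normalized, or with the level trend removed by lowess, none of the 4 reached 2-fold, and with each array centred on its median 7 members did.

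Signal lay above the olfactory limit on both arrays for 73 of 93 members. A further 11 exceeded it with vehicle only, and 9 on neither array. Of 18 members with more than 1 probe set, 16 had differences of a single sign in all of them, and the median spread between the probe sets of a gene was 0.13 on the log2 scale. The exceptions were Sdhaf4, with probe sets at 0.02 and -1.01, and Atp5md, with a range of -0.11 to 0.12. Processed copies of these genes are common in the genome, and probes for near-identical copies cannot be told apart.

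**Figure D1:**
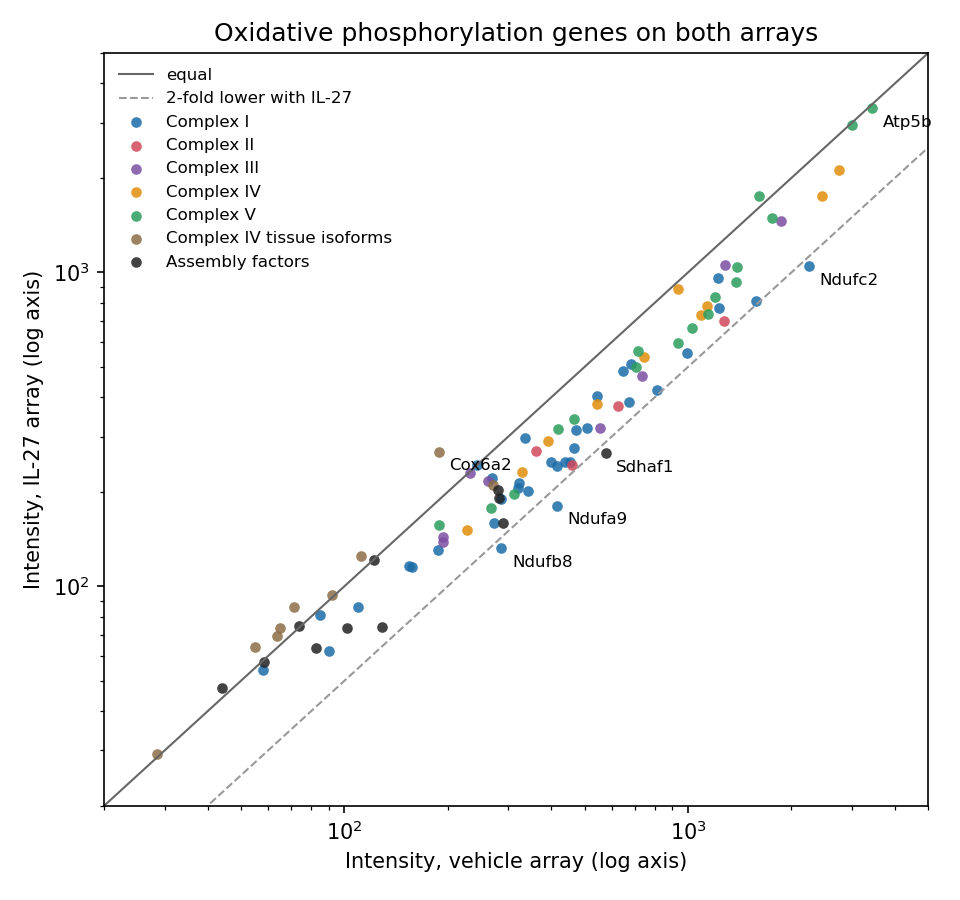
Intensity with vehicle (x axis) against intensity with IL-27 (y axis), both on log axes, with 1 point per gene and 93 genes, coloured by complex. The solid line marks equal intensity and the dashed line a 2-fold lower intensity with IL-27. Most points lie between the lines, and Ndufa9, Ndufb8, Ndufc2 and Sdhaf1 lie below the dashed line.

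**Figure D2:**
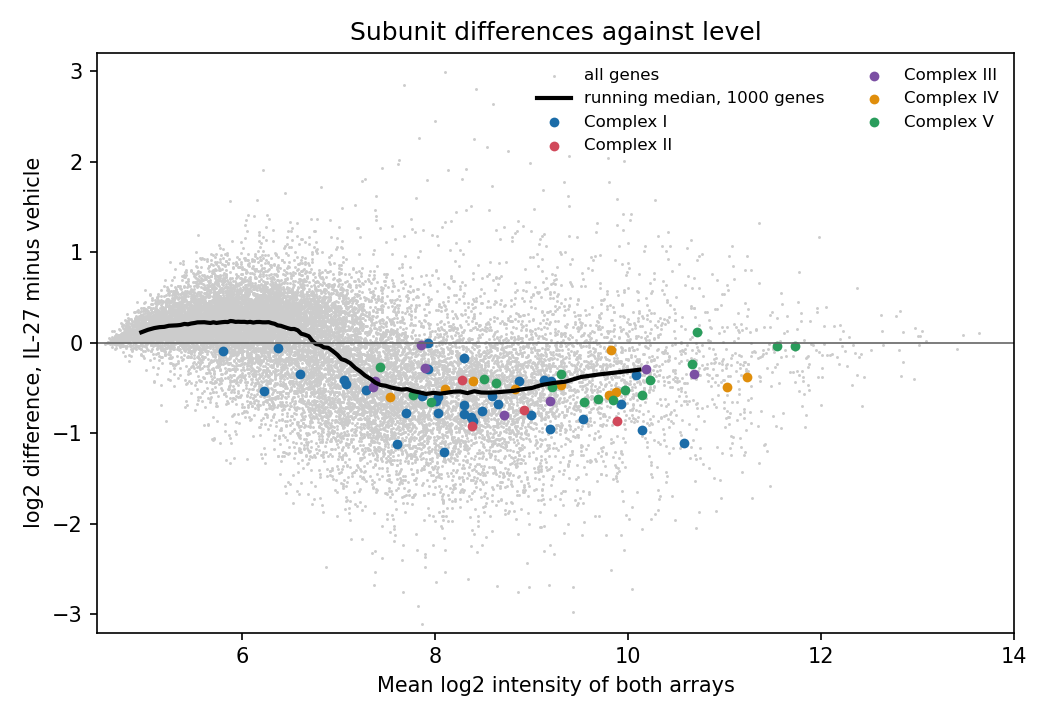
Difference (log2, IL-27 minus vehicle) against the mean log2 intensity of both arrays, with all 19935 genes in grey, the running median over 1000 genes as a black line and the 73 subunits coloured by complex. The line runs below 0 over most of the range of the subunits, and many complex I and complex II points lie under it.

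Complex I, which oxidises NADH, had a lower median than its level neighbours. Its 34 subunits had a median difference of -0.62 (1.53-fold lower), with a range of -1.20 to 0.00, against -0.50 in the neighbours. The median measured from the neighbours was -0.23, and 28 of 34 subunits lay below theirs. At 1.5-fold, 19 of 31 subunits over the level minimum (61.3%) were lower, beside 33.7% of all genes, a share not matched for level. The median stayed below 0 with quantile normalization (-0.37) and with the level trend removed (-0.32).

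The core subunits of complex I carry the flavin, the iron-sulfur clusters and the ubiquinone site. All 6 that were measured were lower, by -0.68 to -0.96, and all 6 lay below their level neighbours. Ndufv1, the subunit that binds NADH and FMN, was read at 440 (vehicle) and 249.6 (IL-27), a difference of -0.82. Ndufs1, the large iron-sulfur subunit, had 272 and 159 (-0.77). Ndufs7 and Ndufs8, which hold the last iron-sulfur clusters before ubiquinone, had 1580 and 812 and 815 and 421. Their differences of -0.96 and -0.95 were just short of 2-fold. Ndufs3 (399 and 249) and Ndufv2 (1234 and 771) each differed by -0.68. With the level trend removed all 6 were still below 0, from -0.24 to -0.70.

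The 28 accessory subunits, which surround this core, were more spread, with a median of -0.55. The 3 past 2-fold were Ndufa9, Ndufb8 and Ndufc2. Ndufa9, which lies near the ubiquinone site, was read at 415 (vehicle) and 181 (IL-27), a difference of -1.20 (2.30-fold lower). Of its level neighbours, 12.7% were at least as low. Ndufb8, of the membrane arm, had 287 and 132 (-1.11), and 12.9% of its neighbours were at least as low. Ndufc2, also of the membrane arm, had 2251 and 1047 (-1.10), with 10.0% of its neighbours at least as low. With the level trend removed these differences were -0.77, -0.78 and -0.89. Ndufs4, a subunit whose loss causes Leigh syndrome, followed with 992 and 555 (-0.84), and Ndufa7 with 454 and 249.7 (-0.86).

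Some other accessory subunits differed less. Ndufa12 had 242.5 and 242.9, a difference of 0.00, which 12.4% of its level neighbours reached or exceeded. Ndufab1, the mitochondrial acyl carrier protein that also serves lipoic acid synthesis, had 336 and 298 (-0.17). Its difference became 0.16 with quantile normalization and 0.27 with the level trend removed. Ndufv3 had 269 and 221 (-0.28), which became 0.13 once the trend was removed. Ndufa5, Ndufb2 and Ndufb3 did not reach the level minimum, and their values on the IL-27 array (54.3 to 81.1) lay under the olfactory limit. Among them Ndufb3 had a difference of -0.53. Ndufa1 (115), Ndufb10 (116) and Ndufs5 (86.1) reached the minimum but were also under the olfactory limit on the IL-27 array.

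Complex II, succinate dehydrogenase, had the lowest median of the 5 complexes as deposited, -0.80 (1.75-fold lower) over 4 subunits, against -0.52 in level neighbours. Sdha, the flavoprotein that oxidises succinate, had 1274 on the vehicle and 698 on the IL-27 array (-0.87). Sdhb, the iron-sulfur subunit, had 459.7 and 244 (-0.92). The membrane anchors Sdhc and Sdhd had 625 and 375 (-0.74) and 359.9 and 269.8 (-0.42). None of the 4 reached 2-fold, and 3 of 4 were lower by 1.5-fold, beside 33.7% of all genes, a share not matched for level. Sdhd was the exception: it lay 0.12 above its level neighbours, and its difference became 0.02 once the level trend was removed. The other 3 lay 0.22 to 0.53 below theirs on the log2 scale.

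The 11 assembly factors, which build complexes I and II without staying in them and of which 7 reached the level minimum, had a median of -0.47 and lay -0.25 from their level neighbours in the median. Sdhaf1, which helps insert iron-sulfur clusters into Sdhb, had 575 on the vehicle and 266 on the IL-27 array (-1.11, 2.16-fold lower), and 15.0% of its level neighbours were at least as low. Sdhaf2, which attaches the flavin to Sdha, had 280.3 and 202 (-0.47), near its neighbours. Of the complex I factors, Ndufaf1 had 289 and 159 (-0.86). Ndufaf7, Ndufaf4 and Ndufaf2 had vehicle values of 129, 102 and 82.9 and were under the olfactory limit on the IL-27 array, so that their differences of -0.79, -0.47 and -0.39 are not fixed in size. Ndufaf3 (282 and 192) lay close to its neighbours, and Ndufaf5 (43.9 and 47.3) and Ndufaf6 (58.4 and 57.4) were under the olfactory limit on both arrays.

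The promoters of these genes were compared because the subunits are known to share binding sites for a few factors. RefSeq windows (GRCm38.p6, 250 bases before to 50 after each start) were found for 77 of the 93 members, with 82 windows. Both strands were searched for the core of the site of nuclear respiratory factor 1 (GCGCANGCG), of ETS factors such as GABPA (CCGGAAG), of YY1 (AAGATGGCG) and of the TATA box (TATAAA). No cores of different names overlapped in the members' windows. The NRF1 core was in 29.3% of member windows, in 6.25% of all 32851 windows and in 12.4% of the windows of measured genes over the level minimum. The ETS core was in 25.6%, 8.86% and 16.7% of these, and the YY1 core in 8.54%, 1.40% and 2.88%. The TATA box was in 12.2%, 13.6% and 7.54%. Median GC content was 58.5%, 52.7% and 60.3%. A match is a description of letters and does not show binding.

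Windows are shown for the 4 members past 2-fold and for Sdha, from 150 bases before to 30 from the start, 5′ to 3′ on the strand of the gene. The window of Sdha was among the 10 member windows that held more than 1 match to the NRF1 core. This count takes overlapping matches on both strands at a single site, as in Atp5g2, as separate matches. Capitals mark the NRF1 and ETS cores. The positions are chr6:126849115-126849294 (minus strand) for Ndufa9, chr19:44555413-44555592 (minus) for Ndufb8, chr7:97399853-97400032 (plus) for Ndufc2, chr7:30322346-30322525 (minus) for Sdhaf1 and chr13:74350211-74350390 (minus) for Sdha, all in GRCm38.p6.
Ndufa9: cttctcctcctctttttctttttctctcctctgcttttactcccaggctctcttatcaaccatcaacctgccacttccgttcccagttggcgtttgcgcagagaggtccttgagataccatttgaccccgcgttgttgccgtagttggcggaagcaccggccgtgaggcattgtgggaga
Ndufb8: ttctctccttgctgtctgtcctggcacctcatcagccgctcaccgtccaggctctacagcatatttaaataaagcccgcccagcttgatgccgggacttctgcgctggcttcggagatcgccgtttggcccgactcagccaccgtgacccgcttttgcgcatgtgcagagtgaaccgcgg
Ndufc2: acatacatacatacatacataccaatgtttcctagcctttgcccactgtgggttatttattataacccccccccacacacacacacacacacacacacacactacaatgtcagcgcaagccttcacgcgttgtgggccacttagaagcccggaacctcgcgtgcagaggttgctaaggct
Sdhaf1: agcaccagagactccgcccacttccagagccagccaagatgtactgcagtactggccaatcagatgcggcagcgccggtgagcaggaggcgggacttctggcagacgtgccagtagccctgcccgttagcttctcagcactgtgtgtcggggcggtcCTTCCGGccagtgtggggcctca
Sdha: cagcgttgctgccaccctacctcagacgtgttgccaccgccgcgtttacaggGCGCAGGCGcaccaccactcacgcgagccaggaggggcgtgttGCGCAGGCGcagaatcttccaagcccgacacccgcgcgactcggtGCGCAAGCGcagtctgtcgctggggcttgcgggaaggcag

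The 3 complex I stretches held none of the searched cores, although the longer window of Ndufa9 held a YY1 core outside the stretch shown, Sdhaf1 held 1 ETS core near the start, and Sdha 3 NRF1 cores. The median difference was -0.43 for the 19 subunits with the NRF1 core and -0.58 for the 43 without it. For the ETS core the medians were -0.57 with it (17 subunits) and -0.52 without it (45 subunits), and for the YY1 core -0.63 (7 subunits) and -0.52 (55 subunits). Measured from level neighbours, the medians were -0.15 with and -0.20 without the NRF1 core, -0.09 with and -0.19 without the ETS core, and -0.29 with and -0.14 without the YY1 core. For the ETS core the order of the 2 medians thus depended on this step.

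Complex III, which passes electrons from ubiquinol to cytochrome c, did not stand out from genes of its level. Its 8 subunits had a median of -0.39, or -0.02 measured from level neighbours, and 4 of 8 lay below theirs. Uqcrh, the hinge protein that contacts cytochrome c1, had 555 on the vehicle and 320.01 on the IL-27 array (-0.79). Uqcrc1, a core protein, had 732 and 468 (-0.65), while the other core protein, Uqcrc2, had 1284 and 1053 (-0.29). The Rieske iron-sulfur protein Uqcrfs1 had 194 and 138 (-0.49), and Uqcr10 193 and 144 (-0.42). Uqcrq had 233 and 229 (-0.02), the least of the 8. It lay 0.53 above its neighbours and was above 0 with quantile normalization (0.28) and with the level trend removed (0.38). Uqcrb, which binds ubiquinone, had 1860 and 1461 (-0.35). Uqcr11 had 262 and 217 (-0.27), while its other probe set had -0.91, so that its size depends on the probe set. Cyc1, cytochrome c1, is a subunit outside the symbol rule and had 372 and 237 (-0.65).

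Complex IV, cytochrome c oxidase, was lower in all 10 general subunits as deposited, by about as much as other genes of similar intensity. The median was -0.50, and -0.07 measured from level neighbours, with a range of only -0.60 to -0.08. Cox4i1, the regulatory subunit used in most tissues, had 542 and 379.8 (-0.51). Ndufa4, long counted as complex I and now placed in complex IV, had 228 and 151 (-0.60), the lowest of the 10. Cox8a had 1091 and 731 (-0.58), Cox6b1 1136 and 781 (-0.54), Cox7a2 329.5 and 231 (-0.52) and Cox6a1 744 and 539 (-0.47). The bright genes Cox6c (2745 and 2117) and Cox7b (2461 and 1756) differed by -0.37 and -0.49. Cox5a had 390.1 and 291 (-0.42), which became 0.02 once the level trend was removed. Cox5b had 935 and 883 (-0.08), which turned to 0.10 with quantile normalization and 0.22 with the trend removed.

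The tissue isoforms of complex IV were mostly dim, as 6 of 9 did not reach the level minimum. Cox6a2, Cox7a2l and Cox4i2 did. Cox6a2, the heart and skeletal muscle form of subunit VIa, had the highest difference of the 93 members as deposited. It was read at 188 (vehicle) and 269 (IL-27), a difference of 0.52 (1.43-fold higher), above the olfactory limit on both arrays. It was short of the 1.5-fold rule as deposited. It lay 1.05 above its level neighbours, of which 3.60% were at least as high, and stayed above 0 with quantile normalization (0.80) and with the level trend removed (0.90). Cox6a1, the form used elsewhere, had -0.47 on its own probe set. Cox4i2, the oxygen-sensitive form, had 112 and 125, the second within the olfactory range. Cox7a1 (63.5 and 69.4) and Ndufa4l2, a relative of Ndufa4 induced by hypoxia (55.1 and 64.1), were within it on both arrays. Cox7a2l, a factor of supercomplex assembly, had 271 and 211 (-0.36), which turned to 0.04 with the trend removed.

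Complex V, the ATP synthase, also kept to the genes of its level, and its brightest probe sets showed almost no difference. The 17 subunits had a median of -0.45, or -0.04 measured from level neighbours, with 9 of 17 below theirs. The catalytic subunit gene Atp5b had 3438 on the vehicle and 3344 on the IL-27 array (-0.04), and the central stalk gene Atp5d 3009 and 2945 (-0.03). With quantile normalization Atp5b was at 0.09 and Atp5d at 0.07, and with the level trend removed at 0.05 and 0.08. Atp5a1, also of the catalytic head, had 1384 and 1038 (-0.42), and Atp5c1, of the central stalk, had 1195 and 835 (-0.52). Atp5e had the lowest difference, with 312 and 197 (-0.66), followed by the peripheral stalk genes Atp5pb with 933 and 594 (-0.65) and Atp5j with 1143 and 737 (-0.63). Atp5h, of the same stalk, had 1382 and 929 (-0.57).

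Atp5g1, Atp5g2 and Atp5g3 encode the same mature c-ring protein behind different import sequences. Atp5g1 had 1026 and 666 (-0.62), Atp5g2 1760 (1759.7) and 1491 (-0.24) and Atp5g3 714 and 562 (-0.35). With the level trend removed the differences were -0.31, -0.03 and 0.02. Atp5g1 was the lowest of the 3 under each of these scalings, although its other probe set had -0.43. Atp5md, which helps hold synthase dimers together, was the 1 complex V member with a difference above 0 as deposited, at 1612 and 1749 (0.12), although another of its probe sets had -0.11. Of the 8 membrane subunits 2 lay below their level neighbours, and of the 9 subunits of the head and stalks 7 did.

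**Figure D3:**
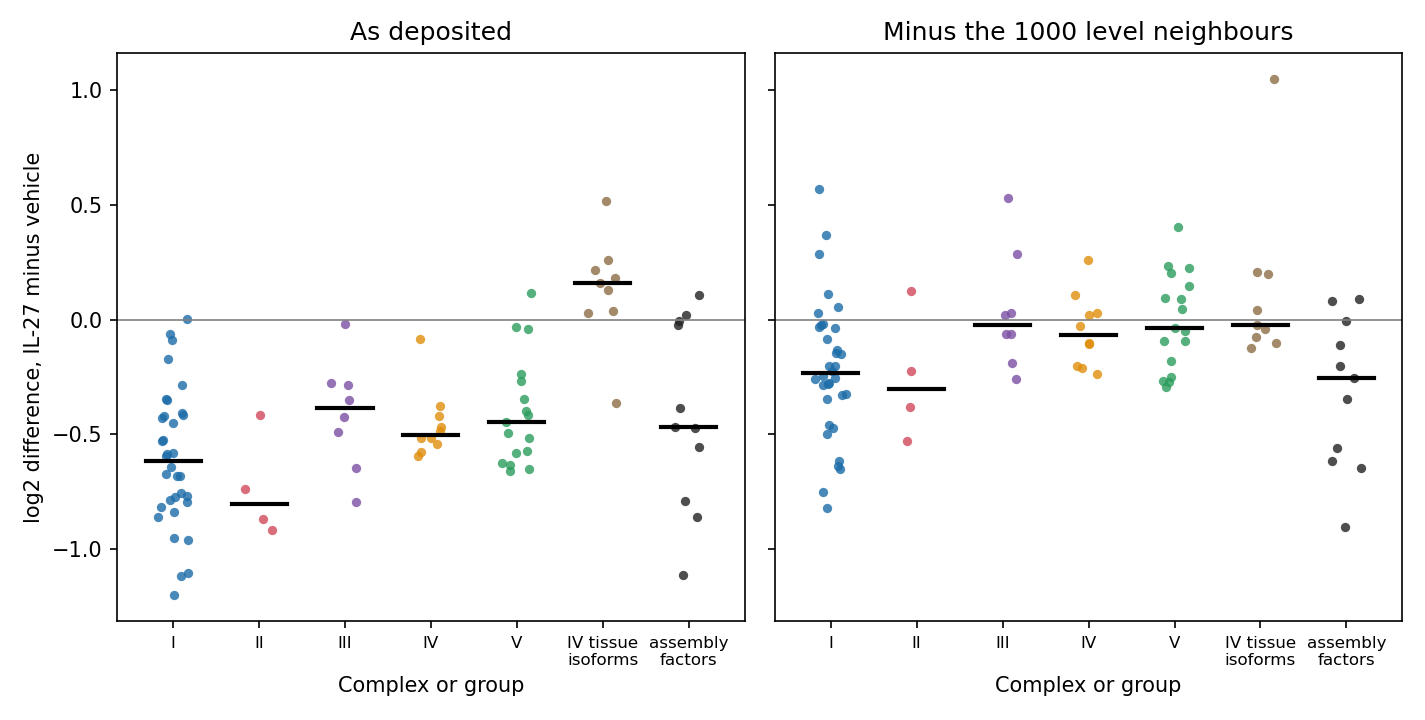
Difference of each member (log2, IL-27 minus vehicle) by complex or group, as deposited on the left and minus the median of its 1000 level neighbours on the right, with 1 point per gene and the median as a bar. On the right the bars of complexes III, IV and V lie at -0.02, -0.07 and -0.04, and those of complexes I and II at -0.23 and -0.30.

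Placed side by side, complexes I and II lay lower than complexes III, IV and V under each scaling that was tried. As deposited the medians ran from -0.80 for complex II and -0.62 for complex I to -0.50, -0.45 and -0.39 for complexes IV, V and III. With the level trend removed they were -0.40, -0.32, -0.17, -0.12 and -0.16. With quantile normalization they were -0.50, -0.37, -0.22, -0.20 and -0.21. All 5 medians were below 0 under each of these scalings. The difference between complexes was not tested, since genes are not replicates and complex II has 4 subunits.

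**Figure D4:**
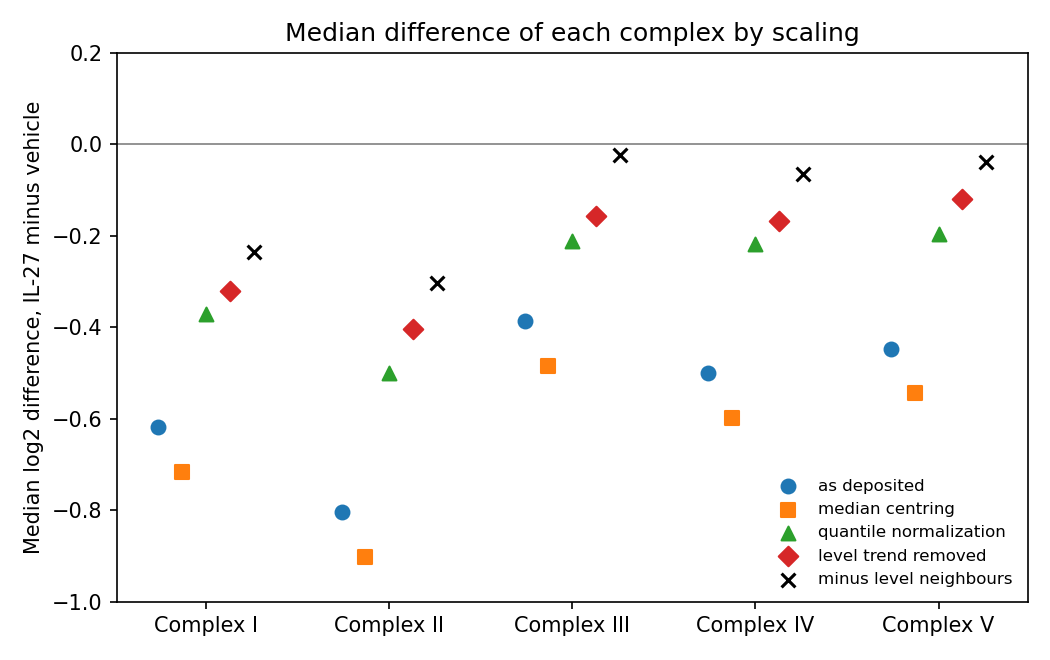
Median difference of the subunits of each complex (log2, IL-27 minus vehicle) as deposited, under 3 other scalings and measured from level neighbours, with 1 symbol per setting. The symbols of complexes I and II lie below those of complexes III to V at each setting.

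Enzymes that feed the chain were lower too, and 15 of 16 lay below their own level neighbours. Of 16 measured genes of the tricarboxylic acid (TCA) cycle and pyruvate dehydrogenase, all 16 had a difference below 0, with a median of -0.83 and of -0.33 measured from neighbours. By the 2-fold rule 4 of 16 (25.0%) were lower, beside 13.2% of all genes, and 13 of 16 by 1.5-fold, beside 33.7% of all genes. Neither share of all genes was matched for level. Fh1, fumarase, the next step after complex II, had 488 on the vehicle and 184 on the IL-27 array (-1.41). Idh2, the mitochondrial NADP-dependent isocitrate dehydrogenase, had 585 and 222 (-1.40), and Sucla2, a subunit of succinyl-CoA synthetase, had 291 and 140.4 (-1.05). Among 12 electron carriers and ubiquinone genes, Etfb, a subunit of the flavoprotein that brings electrons from fatty acid oxidation, had 1055 and 426 (-1.31) and was the 1 gene past 2-fold among the 10 over the level minimum (10.0%, beside 13.2% of all genes). Its partner Etfa had 311 and 158 (-0.97), the ubiquinone synthesis gene Coq2 had 357 and 207 (-0.79), and Cycs, cytochrome c itself, 2278 and 2022 (-0.17).

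Of 22 assembly factors with other symbols over the level minimum, 5 were 2-fold lower (22.7%, beside 13.2% of all genes) and none was higher (1.52% of all genes). These shares of all genes were not matched for level. The lowest were Cox20, with 396 and 179 (-1.15), Atpaf1, with 203 and 95.9 (-1.08), and Bcs1l, which inserts the Rieske protein, with 258 and 123 (-1.07). The IL-27 values of Atpaf1 and Bcs1l were under the olfactory limit. Among factors of complex V under other symbols, Atpif1, the inhibitor of the synthase, had 3006 and 2316 (-0.38). Dmac2, in the same list although it is an assembly factor of complex I, had 223 and 122 (-0.87), the second also under the olfactory limit.

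Regulators of mitochondrial genes were mixed, with 2 of 11 over the level minimum 2-fold lower (18.2%, near the 13.2% of all genes) and a median of -0.03 measured from level neighbours. Myc, which drives growth and mitochondrial biogenesis, had 600.2 and 218 (-1.46). Tfb1m, which methylates mitochondrial ribosomal RNA, had 147 and 63.9 (-1.21), the second under the olfactory limit. Nrf1 had 206 and 182 (-0.18, turning to 0.16 with the trend removed), Gabpa 263 and 170.2 (-0.63) and Esrra 212 and 154 (-0.46). Tfam, which packs mitochondrial DNA, had 85.4 and 59.4, and the coactivator Ppargc1b 88.3 and 77.3, both under the olfactory limit with IL-27. The coactivator Ppargc1a (67.1 and 89.7) was under the limit on both arrays. Neither Tfam nor these coactivators reached the level minimum. Of 7 carriers and channels 1 was 2-fold lower (14.3%, near the 13.2% of all genes), the ADP/ATP exchanger gene Slc25a4, with 629.9 and 288 (-1.13). The outer membrane channels Vdac1 and Vdac2 had 823 and 532 (-0.63) and 1305 and 956 (-0.45).

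The mitochondrially encoded subunits that could be read went the other way. COX2, here the second subunit of complex IV and not the prostaglandin enzyme, had 6324 on the vehicle and 7749 on the IL-27 array (0.29). ND3, of complex I, had 2553 and 3155 (0.31). Both had 2 probe sets, with differences of 0.25 and 0.31 for ND3 and 0.29 and 0.42 for COX2. They lay 0.56 (COX2) and 0.57 (ND3) above their level neighbours. Genes this bright have mostly dimmer neighbours, so the match in level is poor. COX2 shared its neighbour median (-0.26) with Atp5b, read at 3438 with vehicle. With the level trend removed the differences were 0.27 for COX2 and 0.42 for ND3, and both stayed above 0 with each scaling. Neither reached 1.5-fold, and the other 11 listed genes of mitochondrial DNA were not analysed here. Nuclear copies of mitochondrial DNA can share such probes.

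**Figure D5:**
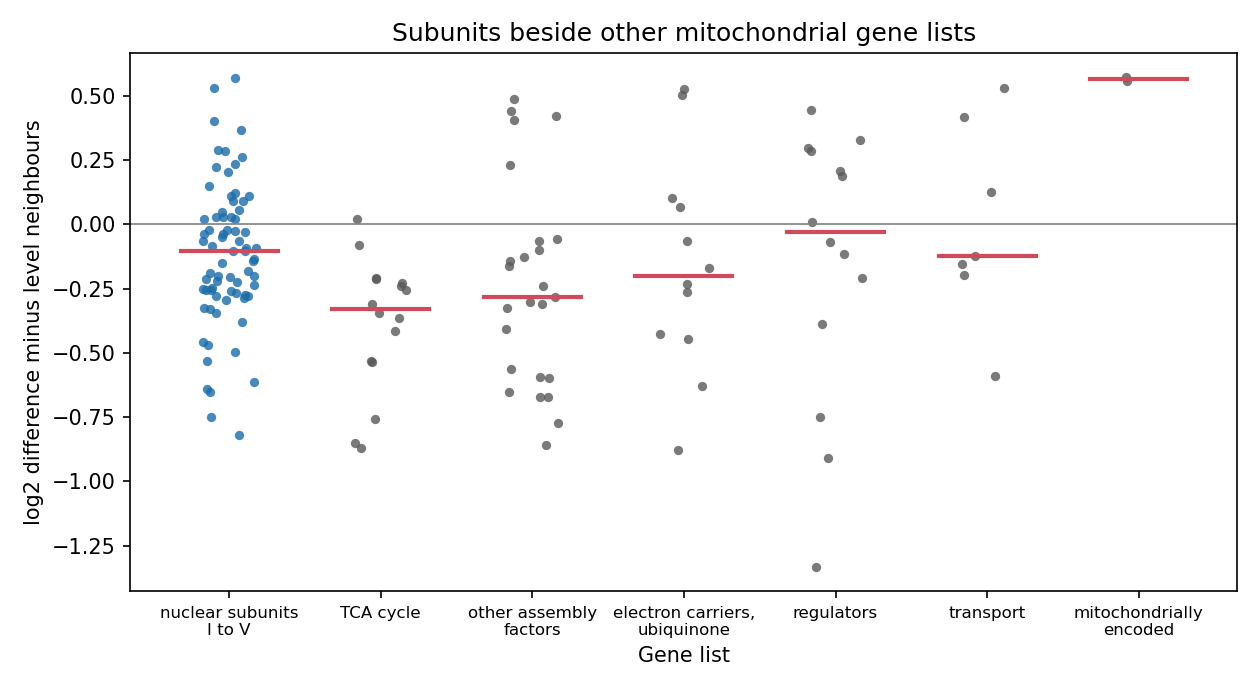
Difference measured from level neighbours (log2, IL-27 minus vehicle) for the 73 nuclear subunits and 6 other lists of mitochondrial genes, with 1 point per gene and the median as a bar. The median of the TCA cycle list lies at -0.33, that of the subunits at -0.10, and both mitochondrially encoded genes lie above 0.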

How the data were processed

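Total RNA of 2 samples (1 vehicle, 1 IL-27) was hybridised to 1 Affymetrix gene array each, after biotin labelling with the WT Terminal Labeling Kit, per the labels' protocols. The deposited files give, for 28815 probe sets, a linear intensity on each array. How these were background-corrected, summarised and normalized is not given in the sources used here. The build was mm8, per the submitters' processing notes. Depth does not apply to arrays.

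Gene names are those of the GEO platform table (21780 with 1 gene, 1605 with several, 5430 unnamed here). In all, 6 probe sets shared between a member symbol and another gene were left out. Values were taken as log2 with no pseudocount. No replicate exists, so no test was run. A gene was counted by size (2-fold, log2 difference of 1) where its higher intensity reached the median of the data set. Named genes were members past that rule, the 4 largest differences per complex and the 3 largest per outside list at that level, and, whatever their values, a fixed set: Ndufs1, Ndufv1, Ndufab1, Ndufa4, Ndufa4l2, the Sdh subunits, Uqcrc1, Uqcrc2, Uqcrfs1, Uqcrh, Cyc1, Cycs, Cox4i1, Cox4i2, Cox5a, Cox5b, Cox6a1, Cox6a2, Cox7a1, Cox7a2, Cox7a2l, Cox8a, Atp5a1, Atp5b, Atp5c1, Atp5g1, Atp5g2, Atp5g3, Atpif1, Ppargc1a, Ppargc1b, Nrf1, Gabpa, Tfam and Esrra. Every other member named was chosen after its values were seen. Members, lists and the olfactory limit were chosen with earlier results of these data known. The level-neighbour step was checked on the measured differences, shuffled among genes of similar level, with a known shift added to randomly picked genes. That check shows only whether such a shift is recovered. Alternatives were median centring, quantile normalization, lowess removal of the level trend with a span of 0.3, a 1.5-fold rule, averaging the probe sets of each gene, other level filters and adding 16 before log2. Promoter windows came from RefSeq. Python 3.11.15, numpy 2.4.6, pandas 2.3.3 and statsmodels 0.14.6 were used.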

Additional observations from a re-analysis of the deposited data

How the results depend on the processing

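With no replicates, a median was taken as moved when it changed by more than 0.1 on the log2 scale and a count when it changed by more than 1.5 times. No setting turned the sign of the median of any complex. The count of members 2-fold lower went from 4 to 0 with quantile normalization, to 7 with median centring, to 0 with the level trend removed and to 32 by the 1.5-fold rule. It was within 1.5 times of 4 with an offset of 16, the mean of probe sets, no level filter and the level at the 75th percentile. The share of higher genes among all genes past 2-fold was 10.3% as deposited, 20.6% with quantile normalization and 26.2% with the trend removed. Members with a difference above 0 went from 12 to 19 with the trend removed and to 4 over the level minimum. Medians moved toward 0 with quantile normalization (complex I -0.37, II -0.50, III -0.21, IV -0.22, V -0.20, all subunits -0.32) and with the trend removed (-0.32, -0.40, -0.16, -0.17, -0.12 and -0.24). Both settings remove level-dependent differences by construction. The median of all subunits from level neighbours was -0.10, and -0.12 with fewer and -0.11 with more neighbours. Members above the olfactory limit on both arrays were 73, 81 with its 75th and 65 with its 99th percentile. Of 65 named genes, 6 turned sign with quantile normalization, 10 with the trend removed and 0 with median centring or the mean of probe sets. No member past 2-fold turned. No paired analysis was possible because each group has 1 sample.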
